A study of Mus musculus with 27 samples.

Results

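Day 30 neural precursor cells (NPC) were compared with embryonic stem (ES) cells 24 h after doxycycline, in 6 of the 27 samples of the series. WT and CIZ1 KO each gave 2 libraries at 24 h and 1 library as NPC, and all 254 genes measured in them, all on the X chromosome, were described. Another 4 libraries, 2 per genotype without doxycycline (0 h), gave the level before Xist was induced. All cells were female mouse cells of a 129S X Cast background, in which a doxycycline-responsive TetOn promoter drives Xist from the 129S X and Xist carries a Bgl stem-loop tag at its 3' end. The sample titles of both genotypes include the name BglHalo. Beyond that name, WT has no further change in the labels. CIZ1 KO is the same model with a knockout of CIZ1, a protein of the nuclear matrix that associates with Xist RNA, and the labels do not give its number of clones. The ES cells grew on mitomycin-inactivated mouse fibroblast feeders. The NPC are labelled only by 30 days and an NPC differentiation medium, and whether they received doxycycline is not stated. Chromatin-associated RNA, the fraction that stays with chromatin and is rich in transcripts still being made, was sequenced. The labels describe this extraction for ES cells only, and it was assumed to hold for the NPC. The series asked how Xist-mediated silencing compares between lines with different factors removed.

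X inactivation equalises X-linked dosage between female and male mammals. Xist RNA spreads along the X chromosome that makes it and recruits repressors, and in differentiating cells the silent state becomes stable and no longer needs Xist for its upkeep. A small group of genes escapes and stays active on the inactive X, among them the histone demethylase gene Kdm6a, the RNA helicase gene Ddx3x and the translation initiation factor gene Eif2s3x. The quantity reported here is the allelic ratio of a gene, the share of its allele-assigned reads that came from 129S, the X with the inducible Xist. A ratio of 0.5 is equal RNA from both X chromosomes, and a ratio near 0 means that almost all RNA came from the Cast X. The labels do not name the allele counted; it was read as 129S because Xist itself had a ratio from 0.972 to 1.00 in all 10 libraries (0.999 in each NPC library).

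The values carry several limits. They are ratios without read counts, so depth is unknown and no counting error is given. They hold no expression levels, so neither NPC identity nor the content of feeder cells could be checked against markers, and Ciz1 was not among the genes measured. In a bulk ratio, lower output from the 129S X in each cell and a larger share of cells with that X silenced cannot be told apart, nor can a loss from 129S be told apart from a gain from Cast. With 1 NPC library per genotype, genotype and library cannot be told apart in NPC. The labels do not tie replicates to separate cultures, so p-values measure only the spread between these libraries.

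X-linked genes were silenced further in NPC than at 24 h, in both genotypes. The median ratio over genes was 0.513 and 0.506 in the WT libraries at 0 h, 0.288 and 0.297 in WT at 24 h, and 0.0546 in WT NPC. In CIZ1 KO it was 0.511 and 0.519 at 0 h, 0.306 and 0.307 at 24 h, and 0.0830 in NPC. Both NPC libraries lay below every 24 h library, and every 24 h library below every 0 h library. The NPC libraries averaged 0.0688 ± 0.0201 (SD, n = 2) against 0.2997 ± 0.00879 at 24 h (SD, n = 4), and the difference of -0.231 had an exact two-sided permutation p of 0.0667, the smallest p that 2 against 4 libraries can give.

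**Figure D1:**
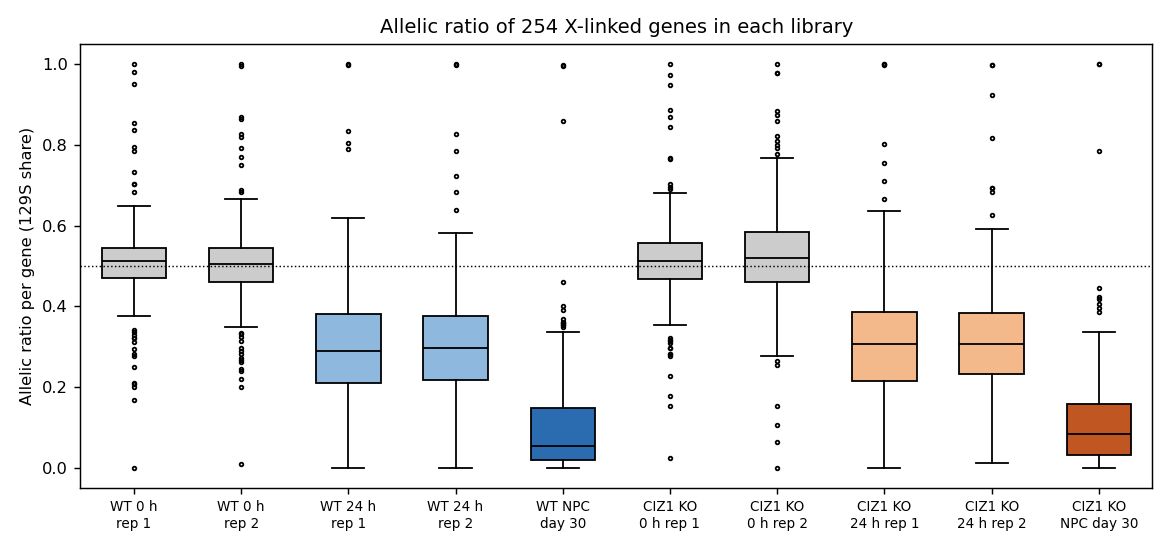
Box plots of the allelic ratio (129S share, no unit) of 254 X-linked genes in each of the 10 libraries; boxes span the quartiles, black lines are medians, and the dotted line marks equal output at 0.5. The medians fall from about 0.5 at 0 h to 0.288 to 0.307 at 24 h and to 0.0546 and 0.0830 in WT and CIZ1 KO NPC, while a tail of genes stays high in NPC.

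Gene by gene, 211 of 254 genes had a lower ratio in NPC than at 24 h (83.1%) and 0 were higher, by limma with Benjamini-Hochberg adjustment over the 254 genes in a fit of genotype and stage on all 10 libraries. At an unadjusted p under 0.05 the counts were 215 lower and 0 higher. The median change over all genes was -0.201, with quartiles of -0.254 and -0.131. Against 0 h, 247 genes were lower in NPC (97.2%) and 0 were higher, also at an unadjusted p under 0.05. At 24 h against 0 h, 239 were lower (94.1%). Over the 247 genes lower in NPC than at 0 h, the fall already present at 24 h was a median of 50.9% of the fall to NPC in WT and 52.4% in CIZ1 KO. The 3 comparisons share libraries and are given side by side.

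The direction was shared by the genotypes. The NPC ratio lay below both 24 h libraries of the same genotype for 233 genes in WT and 246 in CIZ1 KO, and in both genotypes for 228 (89.8%). It lay above both in both genotypes for 1 gene, Xist (0.394%), whose ratio cannot rise much further. Between the NPC libraries, 1 of each genotype, the median absolute difference per gene was 0.0356. It was 0.0307 to 0.0348 between WT and CIZ1 KO libraries at 24 h, and 0.0245 to 0.0344 between replicate libraries at 0 h or 24 h. The NPC medians were only 0.0546 and 0.0830, so the difference of 0.0356 is a larger part of the level than in ES cells.

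The genes with the largest falls came from many functions. Il1rapl1, which encodes a synaptic receptor accessory protein (chromosome X, 86747241 to 88115623, minus strand, mm10), stood apart because it was almost all 129S in ES cells: 0.950 and 0.863 in WT and 0.949 and 0.977 in CIZ1 KO at 0 h, then 0.806 and 0.786 in WT and 1.00 and 0.923 in CIZ1 KO at 24 h. In NPC it was at 0.0182 in WT and 0.0556 in CIZ1 KO, a change of -0.842 ± 0.0398 (SE; limma adjusted p = 8.78e-07). It was one of 8 genes that did not pass the test at 24 h against 0 h but were lower in NPC than at 24 h. The other 7 were Nudt10, Efhc2, Wdr44, Zfp449, Hmgb3, Atp6ap1 and Pin4.

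Several of the other large falls also began from a skewed ratio. Efhc2, an EF-hand protein gene, went from 0.835 and 0.683 in WT and 0.754 and 0.683 in CIZ1 KO at 24 h to 0.0488 and 0.0682 in NPC (-0.680 ± 0.0513 SE). Mageb16, a MAGE family gene, went from 0.618 and 0.639 in WT and 0.712 and 0.693 in CIZ1 KO to 0.180 and 0.184 (-0.484 ± 0.0209 SE). The long noncoding RNA Gm6938 fell by 0.556, to 0.111 and 0.125. Of the 10 genes with the largest falls, 5 had a mean ratio above 0.65 at 0 h, as had 13 of all 254. MAGE genes and other multigene families share sequence among copies, so their ratios are less certain.

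Other genes with large falls had started near equal output. Zfp182, a zinc finger gene, had ratios of 0.409 and 0.446 in WT and 0.456 and 0.455 in CIZ1 KO at 24 h, and of 0.0573 and 0.0791 in NPC (-0.373 ± 0.0157 SE, limma adjusted p = 6.47e-07). Eda2r, the gene of the ectodysplasin A2 receptor, had 0.405 and 0.394 in WT and 0.413 and 0.417 in CIZ1 KO at 24 h, and 0.0254 and 0.0676 in NPC (-0.361 ± 0.0150 SE). Mpp1, which encodes a palmitoylated membrane scaffold protein, had 0.386 and 0.356 in WT and 0.426 and 0.408 in CIZ1 KO at 24 h, and 0.00966 and 0.0573 in NPC (-0.361 ± 0.0232 SE). For Zfp182, Eda2r and Mpp1 the NPC value lay below both 24 h libraries in both genotypes. The rule that named them required this, and 228 of all 254 genes met it (89.8%). All 3 were already called lower at 24 h than at 0 h, with changes of -0.0999 for Zfp182, -0.0834 for Eda2r and -0.149 for Mpp1. F8, the coagulation factor VIII gene, had 0.478 and 0.406 in WT and 0.543 and 0.473 in CIZ1 KO at 24 h and 0.0121 and 0.0200 in NPC. The noncoding C430049B03Rik did not start near equal output, because its mean ratio at 0 h lay outside 0.3 to 0.7 in at least 1 genotype. It fell by 0.452 but spread widely at 24 h, from 0.227 to 0.636, and did not pass with WT libraries alone (change -0.327). Nudt10, a Nudix hydrolase gene listed at 0 in CIZ1 KO NPC and at 0.200 in WT NPC, fell by 0.358 and did not pass without the CIZ1 KO NPC library (change -0.211, adjusted p = 0.0616).

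**Figure D2:**
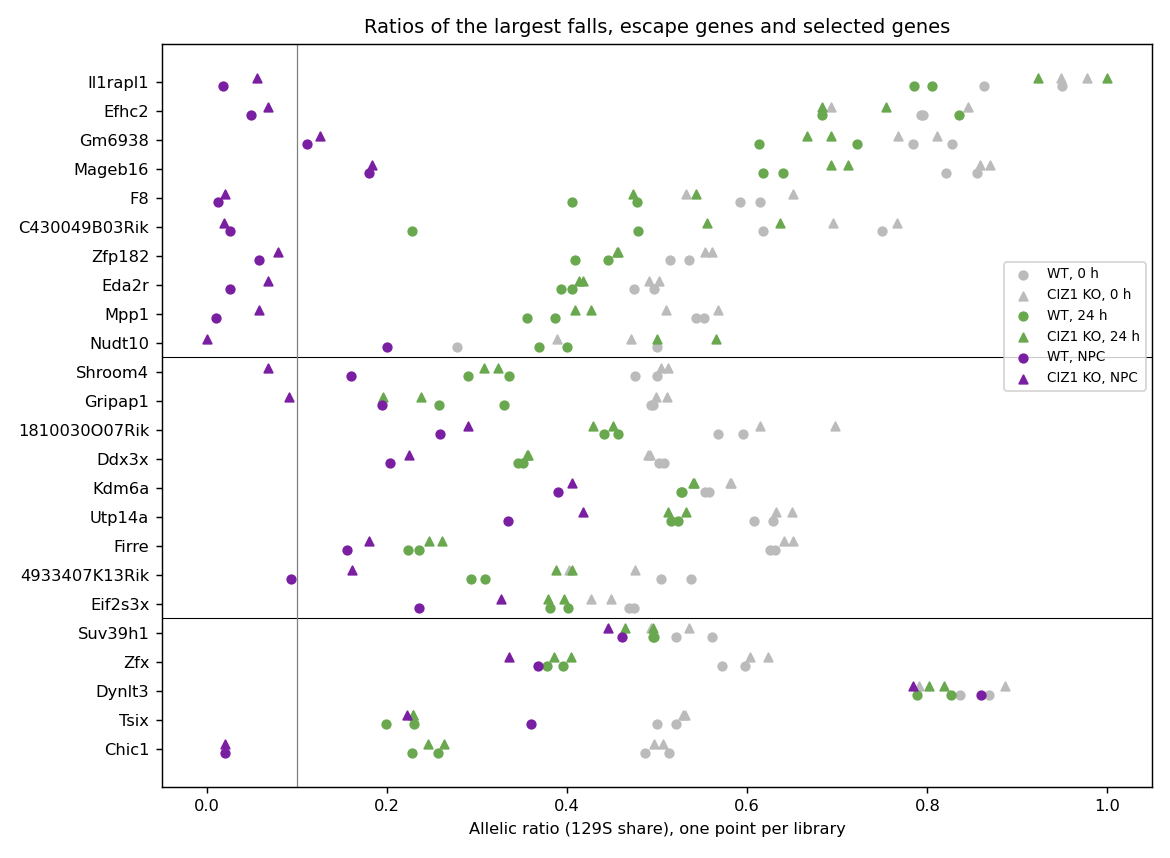
Allelic ratio (129S share) of 24 genes, with 1 point per library; circles are WT and triangles CIZ1 KO, grey is 0 h, green 24 h and purple NPC, and the vertical line marks 0.1. The upper block holds the 10 largest falls, and the middle block escape genes other than Xist, where most NPC points stay right of the line. The lower block holds Suv39h1, Zfx and Dynlt3, which changed little from 24 h to NPC, with Tsix and Chic1 beside Xist.

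To separate genes that stay expressed from the 129S X from those that were nearly silent, a limit of 0.1 was set on the NPC ratio. In both NPC libraries 71 genes were at 0.1 or more (28.0%), 125 were under 0.1 (49.2%), and 58 lay on either side (22.8%). At 24 h only 12 to 16 genes per library were under 0.1, against 163 in WT NPC and 145 in CIZ1 KO NPC. Exactly 0 was listed for 24 genes in WT NPC, 25 in CIZ1 KO NPC and 15 in both. The class counts move with the limit: at 0.05, 123 genes stayed at or above it in both and 78 were under it, and at 0.2 the counts were 25 and 193. The genes nearest the limit were Lonrf3 (0.100 and 0.167) and Naa10 (0.108 and 0.103) inside, and Dock11 (0.0972 and 0.120) outside.

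The classes, which the NPC values define, differed at 24 h, a stage the limit did not use. The genes that stayed at 0.1 or more had a median 24 h ratio of 0.386 in WT and 0.378 in CIZ1 KO, and those under 0.1 had 0.230 and 0.246. At 0 h the medians were 0.531 and 0.548 against 0.494 and 0.503. Over all genes the Spearman correlation between the 24 h and NPC ratios was 0.529 in WT and 0.617 in CIZ1 KO. With Xist, Dynlt3 and C330007P06Rik left out (251 genes), it was 0.512 and 0.603. Genes of 1 library share its depth and its cells, so these are descriptions.

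**Figure D3:**
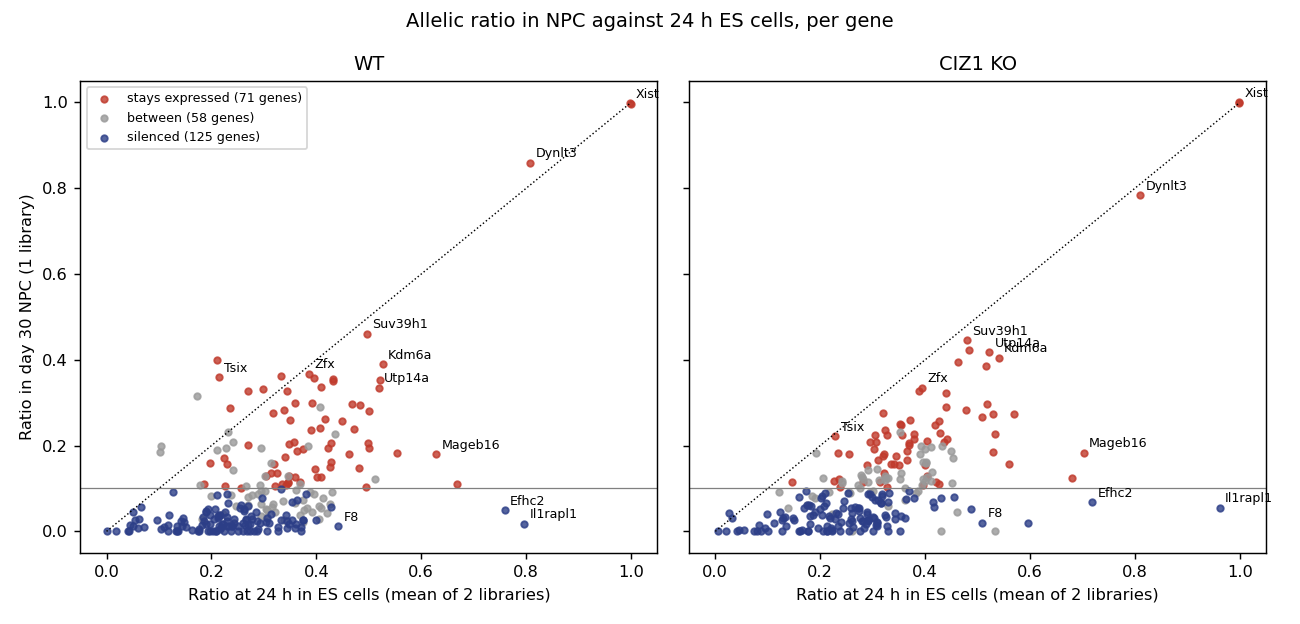
Allelic ratio in NPC (y, 1 library) against the mean ratio of 2 libraries at 24 h (x) for 254 genes, with WT and CIZ1 KO in separate panels; colours give the NPC level class, the horizontal line is 0.1 and the dotted line marks equal values. Most genes lie below the dotted line in both panels, and the genes that stay at 0.1 or more lie towards higher 24 h ratios, with medians of 0.386 and 0.378.

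The silenced class held Flna, the actin crosslinker gene, which had 0.242 and 0.238 in WT and 0.209 and 0.259 in CIZ1 KO at 24 h and 0.0131 and 0.0126 in NPC. It held Med12, a Mediator subunit gene, with 0.0134 and 0.0382 in NPC, and Rps4x, a ribosomal protein gene, with 0.0171 and 0.0744. Smarca1, a chromatin remodelling ATPase gene, was already low at 24 h (0.0909 and 0.0345 in WT, 0 and 0.0417 in CIZ1 KO) and did not pass the test in NPC (0.0278 and 0). It was among 14 silenced genes from 10 Mb onward that were not called lower in NPC; their median was 0.0816 at 24 h and 0.0135 in NPC.

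At the other end, 3 genes kept ratios far above 0.5. Xist was one. C330007P06Rik was at 0.996 and 1.00 in NPC and between 0.997 and 1.00 in all ES libraries, with or without doxycycline. Dynlt3, a dynein light chain gene, was at 0.860 and 0.784 in NPC, within or close to its values of 0.789 to 0.826 at 24 h and 0.791 to 0.886 at 0 h. A gene at 1 at every stage gives no measure of silencing. Xk, a membrane transport protein gene of the first 10 Mb, was among the 10 highest at 0.298 and 0.296, after 0.474 and 0.460 in WT and 0.524 and 0.513 in CIZ1 KO at 24 h (-0.196 ± 0.0224 SE).

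Suv39h1, the H3K9 methyltransferase gene, was the highest of the genes near equal output. Its ratio was 0.521 and 0.561 in WT and 0.535 and 0.493 in CIZ1 KO at 0 h, 0.496 in both WT libraries and 0.464 and 0.495 in CIZ1 KO at 24 h, and 0.461 and 0.445 in NPC (change from 24 h -0.0349 ± 0.0190 SE, limma adjusted p = 0.115). Both NPC values lay below those at 24 h, by less than the test could separate from the spread. Suv39h1 overlaps Gm14820 on the other strand, and Mpp1, Utp14a, Zfx, Chic1, Gyk and Tmem47 also overlap a gene on their other strand, so their ratios are less certain. Zfx, a zinc finger transcription factor gene known to escape in humans, fell at 24 h and then showed no called change: 0.597, 0.572, 0.604 and 0.624 at 0 h, 0.395 and 0.377 in WT and 0.385 and 0.404 in CIZ1 KO at 24 h, and 0.368 and 0.335 in NPC (-0.0388 ± 0.0188 SE, adjusted p = 0.0823). Without the WT NPC library the Zfx change was -0.0644, with an adjusted p of 0.0270. Slc25a5, a mitochondrial ADP/ATP carrier gene with processed copies elsewhere, had 0.352 and 0.395 in NPC, but its 24 h libraries spread from 0.370 to 0.581, and without the second CIZ1 KO 24 h library it was called lower (-0.167, adjusted p = 0.0118).

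Genes known to escape X inactivation kept part of their 129S output but were not spared a fall. Of 10 measured of 19 listed, 9 were lower in NPC than at 24 h, beside 83.1% of all genes, and 7 stayed at 0.1 or more in both NPC libraries, beside 28.0% of all. The median change was -0.137 against -0.201 over all genes, and the median NPC ratio was 0.244 against 0.0772. Kdm6a, an H3K27 demethylase gene, was at 0.526 and 0.527 in WT and 0.540 and 0.541 in CIZ1 KO at 24 h, close to its 0.553 to 0.582 at 0 h, and at 0.390 and 0.405 in NPC (-0.136 ± 0.0129 SE, limma adjusted p = 2.07e-05). Ddx3x, a DEAD-box RNA helicase gene, was at 0.351 and 0.346 in WT and 0.356 in both CIZ1 KO libraries at 24 h and at 0.203 and 0.224 in NPC (-0.138 ± 0.0142 SE). Replicates of Kdm6a and Ddx3x differed by less than 0.05 at 0 h and at 24 h, and the NPC values of the genotypes lay close together.

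Eif2s3x, a subunit gene of the translation initiation factor eIF2, was at 0.381 and 0.401 in WT and 0.379 and 0.396 in CIZ1 KO at 24 h and at 0.236 and 0.326 in NPC (-0.108 ± 0.0264 SE). Its call was lost without the WT NPC library (-0.0537, adjusted p = 0.0525). Utp14a, a ribosome biogenesis gene, was at 0.335 and 0.417 in NPC after 0.512 to 0.532 at 24 h (-0.145 ± 0.0202 SE), and 1810030O07Rik at 0.258 and 0.290 after 0.429 to 0.456 (-0.170 ± 0.0294 SE). Firre, a long noncoding RNA gene whose transcript anchors X-linked chromatin, had most of its fall by 24 h, from 0.626 to 0.651 at 0 h to 0.223 to 0.261 at 24 h, with 0.156 and 0.180 left in NPC (-0.0740 ± 0.0135 SE).

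The 3 remaining listed escape genes crossed 0.1 in 1 genotype only. Shroom4, which encodes an actin-binding protein, was at 0.160 in WT NPC and 0.0683 in CIZ1 KO NPC. Gripap1, which encodes a GRIP1-associated protein, was at 0.194 and 0.0914, and its fall of 0.112 did not pass without the CIZ1 KO NPC library (-0.0778, adjusted p = 0.128). The noncoding 4933407K13Rik, at the Dxz4 locus, was at 0.0935 and 0.161.

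Around Xist itself, the neighbouring coding gene Chic1 was silenced to 0.0197 and 0.0198 after 0.228 and 0.257 in WT and 0.263 and 0.246 in CIZ1 KO at 24 h (-0.229 ± 0.0160 SE, limma adjusted p = 5.45e-06). Nap1l2, a nucleosome assembly gene, was listed at 0 in both NPC libraries after 0 to 0.0857 at 24 h, and passed the test only without the WT NPC library or on the logit and arcsine scales. Tsix, the antisense repressor of Xist, was the exception among genes near Xist. It was at 0.230 and 0.199 in WT at 24 h and 0.359 in WT NPC, and at 0.229 in both CIZ1 KO libraries at 24 h and 0.222 in CIZ1 KO NPC. The additive fit gave a change of 0.0692 ± 0.0331 SE (adjusted p = 0.0802). A fit of 6 group means, in which the lone NPC libraries are assumed to vary like the others, gave the same change with an adjusted p of 0.00624, and without the CIZ1 KO NPC library the change was 0.146 (adjusted p = 0.000448). Tsix overlaps Xist, whose ratio is near 1, and the strand setting of the counting is not given in the sources used here, so reads of the pair cannot be told apart with certainty.

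Gene groups were described by the same classes, from lists compiled with earlier results of these data known. Among the lists of genes with a shared function, RNA processing and translation genes had the highest share still expressed. Of 23 measured, 22 were called lower, beside 83.1% of all genes, and the median change was -0.196, against -0.201 over all genes. Yet 15 stayed at 0.1 or more in both NPC libraries (65.2%, against 28.0% of all genes). The 15 include Ddx3x, Utp14a and Eif2s3x, which are also counted among the escape genes, so the lists overlap. The group started from a higher median at 24 h, 0.380 against 0.299 over all genes. Rpl10, a ribosomal protein gene, had 0.565 and 0.544 in WT and 0.546 and 0.522 in CIZ1 KO at 24 h and 0.182 and 0.226 in NPC (-0.340 ± 0.0286 SE). Upf3b, a nonsense-mediated decay gene, was at 0.128 and 0.250 in NPC, Nkap, a splicing-associated gene, at 0.150 and 0.323, and Fmr1, the gene of the translational regulator FMRP, at 0.116 and 0.187. The 3 members under 0.1 in both were Rbmx, Dkc1 and Rps4x, and Pqbp1, a splicing-associated gene, was the member not called (0.288 and 0.154 in NPC after 0.189 to 0.333 at 24 h). Some listed members lie in the first 10 Mb of the measured chromosome, where ratios in WT NPC were high; from 10 Mb onward the share was 11 of 18 (61.1%), against 50 of 217 genes (23.0%).

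Neural genes, many of which are switched on or raised during neural differentiation, were called lower at about the share of all genes. Of 21 measured, 19 were called lower, beside 83.1% of all genes, and 15 were under 0.1 in both NPC libraries, beside 49.2%. The median NPC ratio was 0.0369 against 0.0772 over all genes. All 21 neural genes lie from 10 Mb onward, where 121 of 217 genes were under 0.1 in both NPC libraries. The medians over those 217 genes were 0.0417 in WT NPC and 0.0744 in CIZ1 KO NPC, and the neural medians 0.0277 and 0.0556. Of the 21 neural genes 4 stayed at 0.1 or more in both NPC libraries, beside 50 of the 217. L1cam, a neural adhesion molecule gene, was at 0.167 and 0.100 in WT and 0.194 and 0.130 in CIZ1 KO at 24 h and listed at 0 in both NPC libraries (-0.148 ± 0.0456 SE, limma adjusted p = 0.0152). Maoa, a monoamine oxidase gene, was at 0.0506 and 0.118 after 0.371 to 0.406 (-0.305 ± 0.0188 SE), and Dmd, the dystrophin gene, at 0.0121 and 0.0325 after 0.121 to 0.149. Members at 0.1 or more in both NPC libraries included Tspan7, Syn1 and Fmr1. The 2 members not called were Nap1l2 and Kis2, a noncoding gene that was at or under 0.0633 in all 24 h libraries.

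Chromatin and transcription regulators were near the shares of all genes: of 25 measured, 21 were called lower (83.1% over all genes), 9 stayed at 0.1 or more (28.0%) and 10 were under 0.1 in both (49.2%). The median change was -0.184, against -0.201 over all genes. Besides Suv39h1, Zfx and Smarca1, the regulator not called was Tfe3, a transcription factor gene, at 0.332 in WT NPC and 0.224 in CIZ1 KO NPC. Without the WT NPC library Tfe3 was called lower (-0.0716, adjusted p = 0.0330). Zfp449, a zinc finger gene, had the largest fall of the list, from 0.372 to 0.547 at 24 h to 0.123 and 0.0946 in NPC (-0.341 ± 0.0570 SE). Ogt, the O-GlcNAc transferase gene, lay on either side of the limit, with 0.394 and 0.398 in WT and 0.387 and 0.396 in CIZ1 KO at 24 h and 0.0870 and 0.200 in NPC (-0.251 ± 0.0277 SE). Of 12 ubiquitin and proteolysis genes all 12 were called lower and 4 stayed at 0.1 or more, beside 83.1% and 28.0% of all genes. Among the 4 was Usp9x, a deubiquitinase gene, at 0.128 and 0.175 in NPC. Cul4b, an E3 ligase scaffold gene, ended at 0.0476 and 0.0606, and Brcc3, a deubiquitinase gene, at 0.0593 and 0.188 (-0.303 ± 0.0299 SE).

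Metabolic and mitochondrial genes were near the whole set. Of 27 measured, 22 were called lower (83.1% over all genes) and 8 stayed at 0.1 or more (28.0% over all genes). The median change was -0.221, against -0.201 over all genes. Gyk, the glycerol kinase gene, had one of the larger falls, from 0.393 and 0.356 in WT and 0.419 and 0.443 in CIZ1 KO to 0.0271 and 0.0781 (-0.350 ± 0.0215 SE). Hprt, the purine salvage gene, was at 0.0926 and 0.180 in NPC. Atp6ap2, a proton pump accessory gene, remained among the highest, at 0.337 and 0.261 after 0.370 to 0.432 (-0.0915 ± 0.0192 SE), although WT libraries alone did not call it (-0.0726, adjusted p = 0.0783). Germline and pluripotency genes (9 of 11 called lower, 2 at 0.1 or more) and fibroblast genes (12 of 15 called lower, 3 at 0.1 or more) were called at about the 83.1% of all genes. Over all genes 28.0% were at 0.1 or more. The germline and fibroblast lists had median NPC ratios of 0.0375 and 0.0447, beside 0.0772 over all genes. All 11 germline and 14 of the 15 fibroblast genes lie from 10 Mb onward, where the medians over genes were 0.0417 in WT NPC and 0.0744 in CIZ1 KO NPC. The germline medians were 0.0268 and 0.0383, and the fibroblast medians 0.0637 and 0.0392. Gpc4, a glypican gene, had 0.104 and 0.0878 in WT and 0.0922 and 0.103 in CIZ1 KO at 24 h and 0.0268 and 0.0404 in NPC, and its small fall of 0.0631 did not pass without either NPC library (adjusted p of 0.104 without WT and 0.0525 without CIZ1 KO). Among the fibroblast genes, Tmem47, a junction-associated membrane protein gene, fell most, from 0.392 to 0.486 at 24 h to 0.0637 and 0.114 in NPC (-0.350 ± 0.0280 SE). Pls3, the actin-bundling plastin gene, fell least of those called, from 0.0688 to 0.124 at 24 h to 0.0149 and 0.00733 (-0.0950 ± 0.0229 SE), and was not called with WT libraries alone (adjusted p = 0.0677) or CIZ1 KO libraries alone (adjusted p = 0.0730). Feeder cells, if present, could add reads to the ES libraries; their part in the ratios was not tested.

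**Figure D4:**
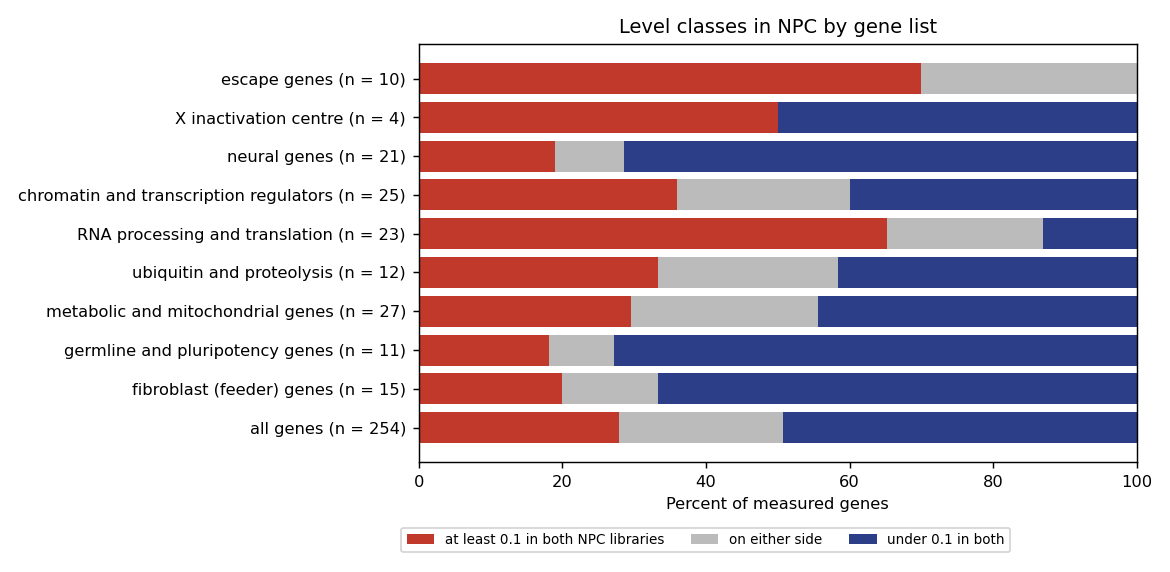
Share (percent) of the measured genes of each list at 0.1 or more in both NPC libraries (red), on either side of 0.1 (grey) and under 0.1 in both (blue), with the number measured beside each name. Escape genes (7 of 10) and RNA processing and translation genes (15 of 23) have the longest red bars against 28.0% of all genes, and these lists share Ddx3x, Utp14a and Eif2s3x. The X inactivation centre bar rests on 4 genes.

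Genes farther from Xist had higher NPC ratios, but beyond the first 10 Mb the change from 24 h to NPC hardly went with distance. The genes measured start from 6.05 Mb and end at Xist. Over 253 genes without Xist, the Spearman correlation of the ratio with the distance from Xist was 0.606 in WT NPC and 0.321 in CIZ1 KO NPC, beside 0.188 and 0.171 at 24 h and 0.00445 at 0 h. From 10 Mb onward it was 0.466 and 0.329 in NPC, and 0.241 and 0.230 at 24 h. For the change from 24 h to NPC it was 0.240 over all 253 genes and 0.0527 from 10 Mb onward. The median NPC ratio in the 20 Mb nearest the start of the chromosome was 0.203 in WT and 0.118 in CIZ1 KO, and between 80 and 100 Mb it was 0.0138 and 0.0338. Neighbouring genes are not independent, and these correlations are descriptions without a test.

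In NPC the genotypes parted in opposite directions at the start of the measured chromosome and beyond it. The edge of 10 Mb was chosen after the values were seen. Of the 37 genes before it, 34 had a lower ratio in CIZ1 KO NPC than in WT NPC (91.9%), against 52 of the 217 genes beyond it (24.0%) and 86 of all 254 (33.9%). The median NPC ratio before 10 Mb was 0.262 in WT and 0.114 in CIZ1 KO, although the same genes had medians of 0.294 and 0.302 at 24 h and 0.492 and 0.508 at 0 h. Beyond 10 Mb the order was the opposite, with 0.0417 in WT NPC and 0.0744 in CIZ1 KO NPC. There, 150 of the 217 genes had a higher ratio in CIZ1 KO NPC. The share before the edge was 92.0% with an edge at 8 Mb, 90.9% at 9 Mb, 86.7% at 13 Mb and 72.2% at 20 Mb.

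**Figure D5:**
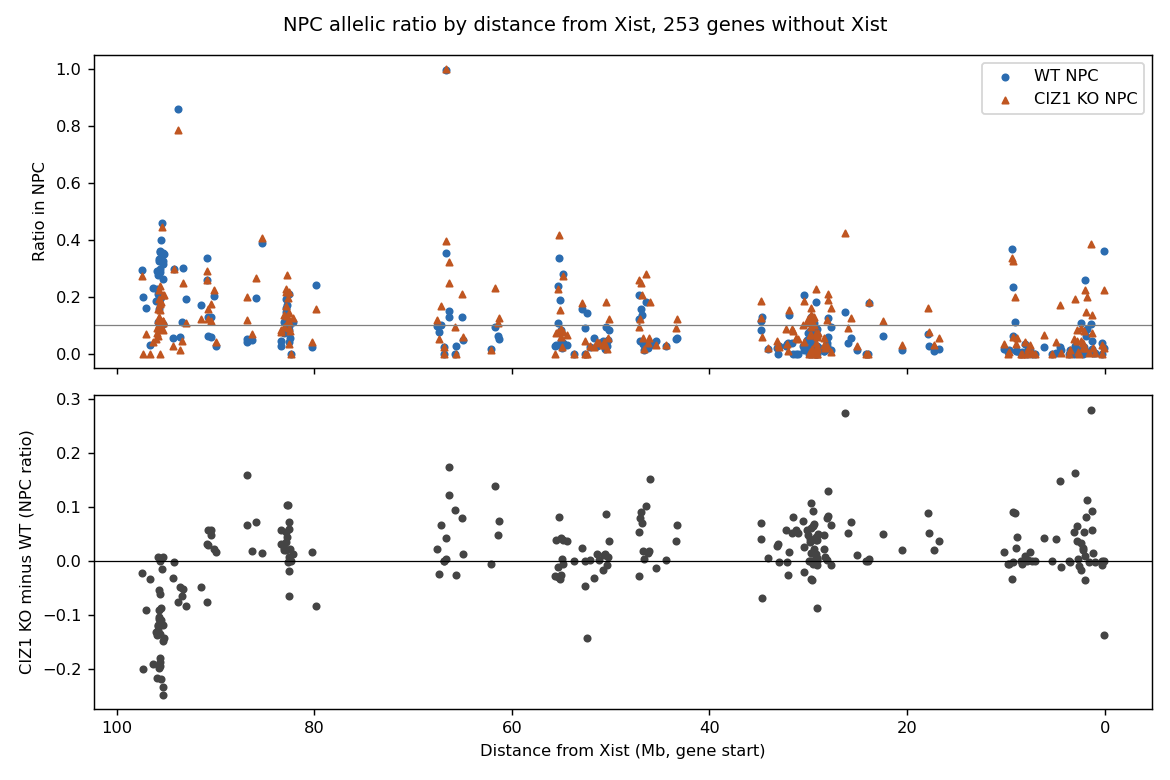
NPC allelic ratio (upper panel; circles WT, triangles CIZ1 KO, line at 0.1) and the difference CIZ1 KO minus WT in NPC (lower panel, line at 0) against the distance of each gene's start from that of Xist in Mb, for 253 genes without Xist, with 1 library per genotype. At the far left, where the first 10 Mb of the chromosome lie, nearly all differences are below 0 (34 of 37), and elsewhere most are above 0.

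Genes whose NPC ratio ranked above both 24 h libraries were found mainly in this region and in WT. The rank sets 1 NPC library against few 24 h libraries, so a gene without any change can also reach it. Before 10 Mb the WT medians were close, at 0.294 at 24 h and 0.262 in NPC. The rank alone therefore does not show that these genes were less silenced in NPC. In WT the NPC ratio lay above both 24 h libraries for 11 of 254 genes. Of these, 9 lie before 10 Mb: 2010204K13Rik, Tfe3, Slc35a2, Pqbp1, Eras, Glod5, Tbc1d25, Porcn and Dynlt3, with Tsix and Xist as the others. In CIZ1 KO 9 of these 11 lay below both 24 h libraries, Glod5 lay within them, and Xist lay above. Porcn, the acyltransferase gene of Wnt ligands, was at 0.125 and 0.221 in WT at 24 h and 0.316 in WT NPC, but at 0.152 and 0.218 in CIZ1 KO at 24 h and 0.0833 in CIZ1 KO NPC. Glod5, a glyoxalase domain gene, was at 0.225 and 0.197 in WT and 0.400 in WT NPC, and at 0.286 and 0.182 in CIZ1 KO and 0.182 in its NPC. Slc35a2, the UDP-galactose transporter gene, was at 0.309 and 0.356 in WT and 0.362 in WT NPC, and at 0.308 and 0.333 in CIZ1 KO and 0.175 in its NPC. None of these genes was called higher in the fit of all libraries; with WT libraries alone, the changes were 0.189 for Glod5 (adjusted p = 0.0173) and 0.145 for Tsix (adjusted p = 0.0101), in a fit whose spread comes from the ES libraries because NPC is 1 library.

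The region also held fewer calls: 18 of its 37 genes were lower in NPC than at 24 h over both genotypes (48.6%), against 83.1% overall. WT NPC was below both 24 h libraries for 23 of the 37 and CIZ1 KO NPC for 36. Wdr13, a WD repeat protein gene at 8.12 Mb, was at 0.446 and 0.417 in WT and 0.417 and 0.376 in CIZ1 KO at 24 h, and at 0.354 and 0.107 in NPC. Its change of -0.183 ± 0.0713 SE (adjusted p = 0.0397) became -0.0452 (adjusted p = 0.571) without the CIZ1 KO NPC library, and leaving out any of the 4 24 h libraries or the first CIZ1 KO 0 h library also ended the call (adjusted p from 0.0541 to 0.0758). Rbm3, a cold-inducible RNA-binding protein gene, was called lower in the combined fit, at 0.403 and 0.431 in WT and 0.412 and 0.431 in CIZ1 KO at 24 h and 0.262 and 0.115 in NPC.

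The difference between the genotypes in the change from 24 h to NPC was tested gene by gene and 0 genes passed in limma on the raw ratios (smallest adjusted p = 0.232). At an unadjusted p under 0.05, 17 genes were lower in CIZ1 KO and 18 higher. On the logit scale, which widens differences near 0, 19 genes were lower in CIZ1 KO and 58 higher, and on the arcsine scale 4 and 10. The 4 called lower on the arcsine scale, Clcn5, Gpkow, Kcnd1 and Rbm3, all lie before 10 Mb, as do 11 of the 19 on the logit scale, and no gene there was called higher. All these calls rest on 1 NPC library per genotype, and all genes called higher lie from 10 Mb onward.

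Beyond the first 10 Mb, the widest NPC difference was in Pin4, a peptidyl-prolyl isomerase gene, which stood at 0.455 and 0.533 in WT and 0.491 and 0.540 in CIZ1 KO at 24 h, and at 0.104 in WT NPC and 0.385 in CIZ1 KO NPC. The fall in CIZ1 KO was smaller by 0.259 ± 0.0595 SE, with an adjusted p of 0.232 on the raw ratio, 0.0454 on the arcsine scale and 0.00679 on the logit scale. The entry listed as Mir669m-2, which spans 77164402 to 77475936, was at 0.148 and 0.423 in NPC, with 24 h values from 0.400 to 0.562. Its change was not called (-0.197 ± 0.0825 SE, adjusted p = 0.0518) and passed without the CIZ1 KO NPC library (-0.302, adjusted p = 0.0348), without the second CIZ1 KO 24 h library (-0.237, adjusted p = 0.0288) and without either CIZ1 KO 0 h library (adjusted p of 0.0474 and 0.0343).

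To see whether the classes shared features of sequence, promoters from 250 bases before to 50 after the start were taken from RefSeq (GRCm38.p6) for the 201 of 254 genes that matched. The promoters of 3 genes that stayed high in NPC and of 3 with large falls to under 0.1 are shown, 5' to 3' on the gene's strand, with each CG dinucleotide in capitals. The genes that stayed high were Suv39h1 (chrX:8074711-8075010, minus strand), Kdm6a (chrX:18162325-18162624, plus strand) and Utp14a (chrX:48256684-48256983, plus strand).
Suv39h1: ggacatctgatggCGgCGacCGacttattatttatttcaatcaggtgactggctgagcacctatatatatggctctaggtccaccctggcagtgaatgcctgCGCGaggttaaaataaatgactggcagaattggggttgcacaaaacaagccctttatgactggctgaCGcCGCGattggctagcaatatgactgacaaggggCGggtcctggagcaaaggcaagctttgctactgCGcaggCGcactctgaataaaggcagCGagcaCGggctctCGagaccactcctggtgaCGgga
Kdm6a: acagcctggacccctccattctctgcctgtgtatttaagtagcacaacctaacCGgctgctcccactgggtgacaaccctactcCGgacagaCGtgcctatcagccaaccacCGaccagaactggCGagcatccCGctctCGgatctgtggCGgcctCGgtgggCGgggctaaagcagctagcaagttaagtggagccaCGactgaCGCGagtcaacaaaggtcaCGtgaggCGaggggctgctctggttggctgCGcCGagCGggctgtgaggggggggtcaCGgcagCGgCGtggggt
Utp14a: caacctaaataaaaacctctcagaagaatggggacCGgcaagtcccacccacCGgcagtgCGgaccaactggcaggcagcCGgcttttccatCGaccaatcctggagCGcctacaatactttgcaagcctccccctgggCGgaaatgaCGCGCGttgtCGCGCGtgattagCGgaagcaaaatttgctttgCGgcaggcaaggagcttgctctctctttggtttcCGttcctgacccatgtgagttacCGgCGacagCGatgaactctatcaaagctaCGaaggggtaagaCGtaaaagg
The genes with large falls were F8 (chrX:75379992-75380291, minus strand), Eda2r (chrX:97377160-97377459, minus strand) and Mpp1 (chrX:75130967-75131266, minus strand).
F8: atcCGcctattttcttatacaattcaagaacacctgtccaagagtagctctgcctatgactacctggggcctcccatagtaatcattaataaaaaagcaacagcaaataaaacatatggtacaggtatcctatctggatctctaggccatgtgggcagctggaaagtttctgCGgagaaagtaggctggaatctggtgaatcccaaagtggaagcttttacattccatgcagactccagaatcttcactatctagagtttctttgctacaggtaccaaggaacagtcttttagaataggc
Eda2r: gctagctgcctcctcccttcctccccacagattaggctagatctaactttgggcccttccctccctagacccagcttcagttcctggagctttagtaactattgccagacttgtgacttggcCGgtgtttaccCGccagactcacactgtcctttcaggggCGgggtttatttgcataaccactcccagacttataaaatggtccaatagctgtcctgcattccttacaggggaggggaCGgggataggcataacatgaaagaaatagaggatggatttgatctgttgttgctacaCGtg
Mpp1: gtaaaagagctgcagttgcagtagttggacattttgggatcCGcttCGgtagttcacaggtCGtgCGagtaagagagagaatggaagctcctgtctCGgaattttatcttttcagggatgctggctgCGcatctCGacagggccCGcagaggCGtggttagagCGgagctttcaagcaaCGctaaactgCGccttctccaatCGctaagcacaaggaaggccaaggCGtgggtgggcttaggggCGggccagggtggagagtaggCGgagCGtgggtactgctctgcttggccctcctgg
These windows held 15, 21 and 21 CG dinucleotides in Suv39h1, Kdm6a and Utp14a, and 2, 5 and 17 in F8, Eda2r and Mpp1. Over all matched genes the median was 20 CG in the 60 promoters of genes at 0.1 or more in both NPC libraries, 14 in the 94 of genes under 0.1 and 17 in all 201. The ranges overlapped widely, with quartiles of 12 to 24 against 8 to 22, and Mpp1, with 17, was among the deeply silenced genes. The letters AGATGGC, a core of the YY1 motif, searched on both strands, were in 5 of the 60 (8.33%), 6 of the 94 (6.38%) and 19 of all 201 (9.45%).

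Gene length was described for the same classes, with no test. The median length was 18.7 kb for genes at 0.1 or more in both NPC libraries and 38.7 kb for genes under 0.1, with 26.7 kb over all 254. From 10 Mb onward it was 25.2 and 38.6 kb. The quartile ranges overlapped, from 9.59 to 44.7 kb against 10.1 to 105 kb.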

How the data were processed

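Chromatin-associated RNA of 10 libraries (WT and CIZ1 KO: 2 at 0 h, 2 at 24 h and 1 as NPC, each) was analysed from the deposited table of 254 X-linked genes. For NPC this RNA fraction is an assumption, because the labels describe the extraction for ES cells only. Its values, as deposited, are a fraction from 0 to 1, the allelic ratio per gene and library. The genome build was mm10, and STAR 2.4.2a, Bowtie2 2.3.2, edgeR, featureCounts, bedtools and SAMtools were among the tools used, in steps not specified, per the submitters' processing notes. The filter behind the 254 genes and the strand setting are not given here by labels or notes, so genes overlapped by a gene on the other strand (43 by GENCODE M21, in which 243 matched) and multicopy genes are less certain. Table columns headed Dox name no time and were read as 24 h, the only doxycycline time that the labels tie to this table.

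Raw ratios were fitted with limma 3.58.1 in R 4.3.3, with genotype and stage as terms, all 10 libraries in 1 fit, and Benjamini-Hochberg adjustment over the 254 genes; calls required an adjusted p under 0.05. The difference between genotypes came from a fit of 6 group means. Medians per library were compared by an exact permutation test (Python 3.11.15), and the fit was tested on simulated data. Members and gene lists were chosen with earlier results of these data known. The text names the 10 largest falls, the 10 highest NPC ratios, all escape and X inactivation centre genes, the largest called and the smallest change of each list, the 5 largest genotype differences in NPC and the genes next to 0.1, except that some results are not reported here. Rises had their own place in that rule, and no gene filled it. Further genes named for their role or class, including those above both WT 24 h libraries, were chosen after their values were seen. Promoters came from RefSeq. The other tables of the series were not used. Alternatives covered the scale (logit, arcsine), the design, the adjustment, the limits, a replicate block and leaving out each library.

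Same-numbered replicates showed little shared deviation in the ratios: the correlations of replicate deviations between groups ran from -0.170 to 0.100. Whether they were paired in culture or preparation is not given.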

Additional observations from a re-analysis of the deposited data

How the results depend on the processing

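No result changed direction past a threshold under any alternative run. The count of genes lower in NPC than at 24 h was 211, and ran from 179 (without the CIZ1 KO NPC library) to 217 when 1 library was left out, with 184 from WT libraries alone, 172 from CIZ1 KO alone and 226 on the logit and arcsine scales. The count higher than at 24 h was 0, and became 1 with 6 group means (Tsix), 2 with WT libraries alone (Glod5, Tsix) and 1 without the CIZ1 KO NPC library (Tsix), a leave-one-out range of 0 to 1. The count higher than at 0 h became 1 (Xist) on the logit scale, on the arcsine scale and with robust moderation. Genes that fell more in CIZ1 KO numbered 19 on the logit and 4 on the arcsine scale, and 0 to 1 when 1 library was left out (Praf2, without the first CIZ1 KO 24 h library). Those that fell less numbered 58 and 10. With a limit of 0.05, 123 genes stayed expressed and 78 were silenced, and with 0.2, 25 and 193. The 1 gene above both 24 h libraries in both genotypes (Xist) became 0 with a margin of 0.05, or with only the 232 genes at 0.3 to 0.7 without doxycycline. The share lower in CIZ1 KO NPC at the start of the chromosome was 72.2% with an edge at 20 Mb, chosen, like the other edges, after the data were seen. Apart from the smaller sets of genes, the cause of these moves was not tested. With a replicate block, which the labels number for ES libraries only and which left NPC outside the blocks, 209 genes were lower than at 24 h and 247 lower than at 0 h. Whether the numbers pair the samples is not given. For single named genes, 1234 values kept their call, 31 lost it and 29 gained it. Depth is unknown, so how far sampling limits ratios near 0 cannot be given, and the lone NPC library per genotype is the main limit.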
